A study of Mus musculus with 12 samples.

Results

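Tight and adherens junction genes were followed in sorted intestinal stem cells (ISCs) of young and old mice. The 10 genes were Cldn2, Cldn3, Cldn4, Cldn7, Cldn15, Ocln, F11r and Tjp1 of the tight junction and Cdh1 and Ctnnb1 of the adherens junction. They were chosen by name from a table of 54232 genes, and all 10 passed the filter on low counts that left 13368 genes for testing. Of the 10, Ocln fell with age in ISCs isolated from wild-type mice, and no other member was called in any comparison.

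Tight junctions seal the space between neighbouring epithelial cells near their apical side, and their claudins either close that space or form selective pores through it. Adherens junctions lie just below and hold cells together through E-cadherin, whose inner side is tied to the actin cytoskeleton by catenins. In the intestinal crypt, stem cells lie wedged between Paneth cells at the base, and beta-catenin also carries the Wnt signal that maintains them.

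Small intestinal ISCs came from mice that were either 2 months old (young) or 22 months old (old), and 12 libraries for 3′ RNA sequencing fell into 4 groups of 3. In the group pair titled SM6 the mice were C57/Bl6 wild type, and in the pair titled Lgr5-GFP they carried the allele spelled Lgr5-EGFP-IRES-CreERT in the labels and Lgr5-EGFP-IRES-CreERT2 in the study's methods, a reporter and inducible Cre placed in the stem cell gene Lgr5. Strain and isolation cannot be told apart. The labels give the same surface marker sort for every library, with EPCAM and EPHB2 among the markers, whereas sorting on GFP is described for the reporter mice in supplementary text of the study. EPCAM is an adhesion protein that binds Cldn7, so presence of an adhesion protein was part of the selection. Crypts had been released in EDTA, which takes up the calcium that E-cadherin needs, and dissociated in the presence of the inhibitor Y-27632 in every group.

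Library totals ran from 970472 to 3815425 counts, and the 10 genes together took between 1750 and 5856 counts, or 0.134% to 0.208% of a library. Defensin transcripts of Paneth cells took 1.26% to 23.2% of the counts, with the highest shares in SM6 old replicate 3 and Lgr5-GFP young replicate 1. Lgr5 was present in every group, with a mean of 332 ± 22.2 CPM (counts scaled to a common library total; SD, n = 3) in young and 253 ± 28.9 CPM in old mice of SM6, and of 258 ± 44.6 CPM in young and 233 ± 15.2 CPM in old mice of Lgr5-GFP. In these bulk libraries fewer cells of a type and less RNA per cell cannot be told apart. Levels of different genes were not set against each other, since counts near the 3′ end depend on how each transcript was captured.

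**Figure D1:**
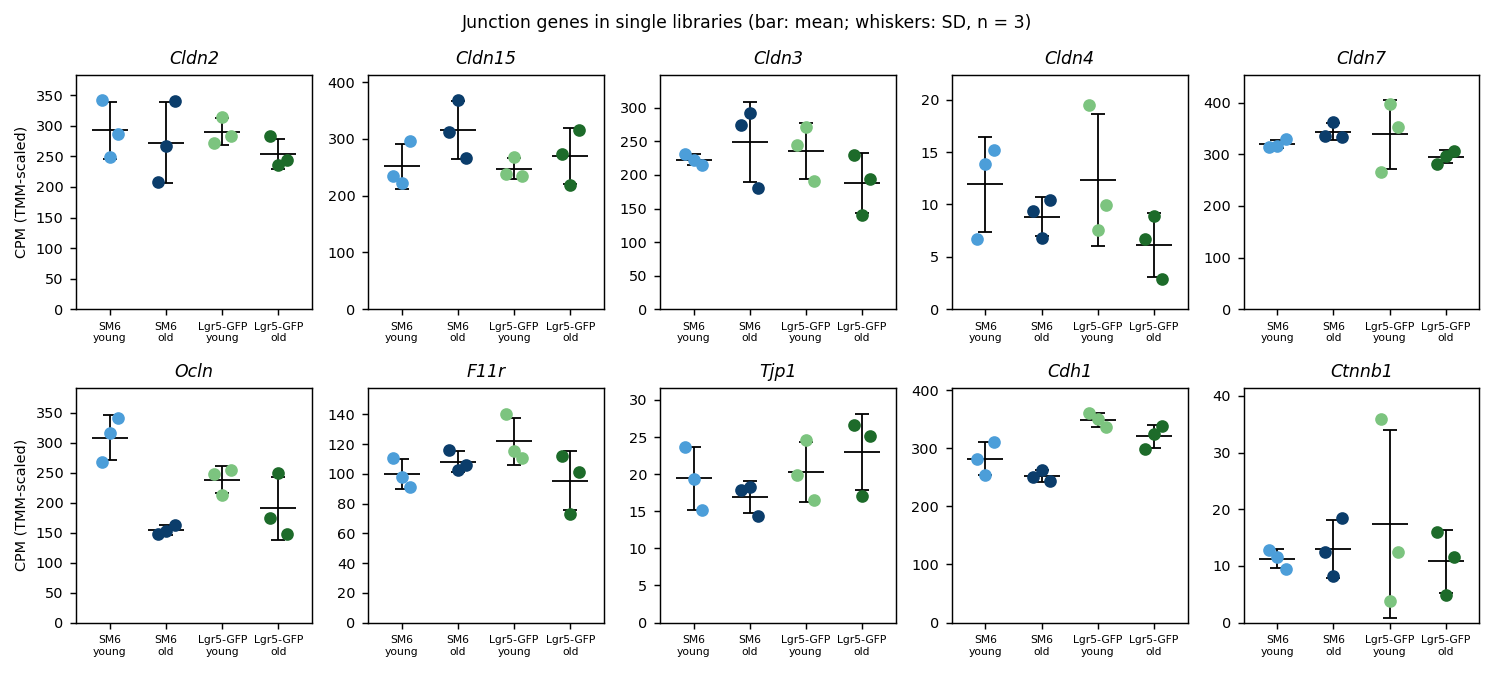
Each panel plots 1 junction gene, with the level in CPM on the vertical axis from 0, the 4 groups on the horizontal axis, 1 point per library, a bar at the mean and whiskers for the SD (n = 3). The 3 SM6 old libraries of Ocln lie at 147 to 163 CPM, below all 3 SM6 young libraries at 268 to 341 CPM, while for most other members the groups overlap.

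The first question was whether junction genes differ between old and young ISCs of wild-type mice. Ocln encodes occludin, a tetraspanning membrane protein that runs along tight junction strands and helps to regulate how tightly they seal. In SM6 young libraries Ocln stood at 268, 315 and 341 CPM in replicates 1 to 3. In SM6 old libraries it stood at 147, 153 and 163 CPM. The lowest young library was above the highest old one, so the groups did not overlap. The counts behind these values were 441 to 569 in young and 189 to 226 in old libraries. On the log2 scale Ocln fell by 0.99 with a standard error of 0.18 and a 95% interval of -1.37 to -0.62, which is a 1.99-fold lower level (adjusted p = 0.00309 by the quasi-likelihood test of edgeR with Benjamini-Hochberg adjustment over all genes tested). In the same test 1.77% of all genes were called lower and 2.42% were called in either direction, and 1 of the 10 junction genes was. Of the 323 genes called, 73.4% were lower, a share that rose to 85% when library totals alone were used for scaling. Libraries did not overlap, with old lower, for 9.78% of all genes tested.

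The fall of Ocln was also expressed as a share within the junction genes, a measure added after the values were seen. It uses the same Ocln counts and is not separate support, and a lower Ocln share raises the shares of other members. As a share of the counts of all 10 members, Ocln took 14.6%, 18.3% and 17.9% in the SM6 young libraries and 8.74%, 8.32% and 9.71% in the SM6 old ones. These shares do not depend on how library totals were scaled, and again the groups did not overlap. Ocln was called lower in SM6 in all 26 alternative fits, which left out single libraries, changed the scaling, the filter or the test, or added a covariate, with log2 fold changes between -1.16 and -0.91 and adjusted p between 1.08e-05 and 0.0328. Those that left out only a Lgr5-GFP library act on the SM6 value only through the shared filter, scaling and spread estimate, and so test it little.

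Markers of other epithelial cells moved with age in the same libraries. The summed level of 15 enterocyte markers was 2120 to 2260 CPM in SM6 young and 2820 to 9750 CPM in SM6 old libraries, with 6 of 15 called higher. The summed level of 8 goblet cell markers was 5710 to 9130 CPM in young and 17300 to 18200 CPM in old libraries, with 5 of 8 called higher. The 14 stem cell markers summed to 13400 to 16700 CPM in young and 8540 to 9720 CPM in old libraries, with 4 of 14 called lower, and Olfm4 made up most of that sum. For 10 Paneth cell markers the sums were 12900 to 88100 CPM in young and 54300 to 331000 CPM in old libraries, with 2 of 10 called higher. Sums of 9 tuft cell, 9 immune cell, and 12 stromal and endothelial markers stayed at or below 53.5, 23.3 and 8.14 CPM in the SM6 libraries, and 11 enteroendocrine markers summed to 756 to 3230 CPM with 2 of 11 called higher. In the SM6 young libraries 2 of the 9 immune markers (Cd79a and Itgax) and 9 of the 12 stromal and endothelial markers had no count. In the SM6 old libraries these were 5 of 9, with Ptprc, Cd3e and Cd3g added, and 8 of 12, with Cdh5 no longer among them. With the enterocyte share of the counts as a covariate Ocln fell by 1.16 on the log2 scale and was called, and with the defensin share it fell by 0.91. The part of goblet and stem cell markers in the result was not tested.

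In Lgr5-GFP mice Ocln stood at 247, 213 and 255 CPM in replicates 1 to 3 of young mice. In old mice it stood at 175, 250 and 148 CPM. Old replicate 2 lay among the young libraries, whereas the other old libraries lay below all of them. Ocln had a log2 fold change of -0.32 with a standard error of 0.18 and a 95% interval of -0.70 to 0.05 (edgeR quasi-likelihood test, adjusted p = 0.596). Without old replicate 2 the log2 fold change was -0.56 (adjusted p = 0.226), and without old replicate 3 it was -0.17 (adjusted p = 0.891). Old replicate 2 also had the highest sum of enterocyte markers, 12100 CPM against 3050 and 2260 CPM in the other old libraries. Group means of that sum were 2650 CPM in young and 5810 CPM in old libraries, whereas 11 of the 15 markers had negative log2 fold changes with age. Their median was -0.93, so the rise of the sum rests on a minority of the markers. The enterocyte share is built from the same summed counts. Over the whole lists, 3 of 15 enterocyte and 2 of 10 Paneth cell markers were called lower with age in Lgr5-GFP, and 0 of 14 stem cell and 0 of 8 goblet cell markers were called. With the enterocyte share as a covariate Ocln had a log2 fold change of -0.50 (adjusted p = 0.423), and with the defensin share one of -0.45 (adjusted p = 0.685). Without the library with the highest defensin share of each isolation it had one of -0.29 (adjusted p = 0.737). The part of goblet and stem cell markers was not tested here either.

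The age effect on Ocln was compared directly between the isolations. The difference, Lgr5-GFP minus SM6, was 0.67 on the log2 scale with a standard error of 0.26 and a 95% interval of 0.14 to 1.20, and it did not pass after adjustment over all genes (edgeR quasi-likelihood test, unadjusted p = 0.0154, adjusted p = 0.387). When single libraries were left out, the difference ranged from 0.432 to 0.82. A smaller effect in Lgr5-GFP was therefore not shown. Averaged over both isolations, Ocln fell by 0.66 on the log2 scale with a standard error of 0.13 and a 95% interval of -0.93 to -0.39 (adjusted p = 0.00377), where 2.66% of all genes were called and 2.06% were called lower. That average was called in all 25 alternative fits, with log2 fold changes between -0.83 and -0.58. The average includes the SM6 libraries and is not independent of the result in SM6.

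**Figure D2:**
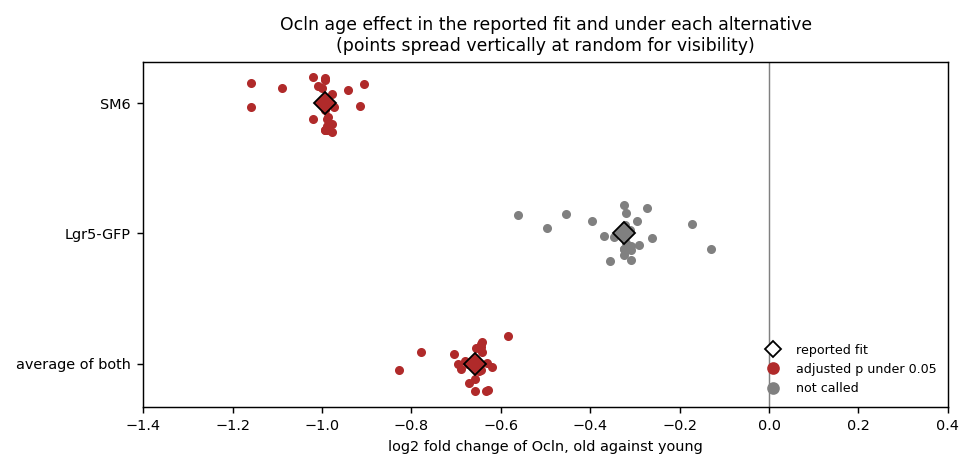
The log2 fold change of Ocln, old against young, is on the horizontal axis, with a row each for SM6, Lgr5-GFP and their average. Diamonds mark the reported fit and circles each alternative fit, red where the adjusted p was under 0.05 and grey where not, and the vertical scatter carries no information. All SM6 points lie between -1.16 and -0.91 and are red, and all Lgr5-GFP points lie between -0.56 and -0.13 and are grey.

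Ocln lies on mouse chromosome 13 (GRCm38, chr13:100496507-100552718, minus strand). The stretch of 250 bases before its most upstream RefSeq start (GRCm38.p6) is shown because Ocln was the member that fell, with the same stretch for Myh9, a gene of the actomyosin belt that fell with it, and for Cldn2, a crypt claudin that was not called. Capitals mark matches to the motifs searched. The windows are chr13:100552719-100552968 (minus strand) for Ocln, chr15:77842176-77842425 (minus strand) for Myh9 and chrX:139800558-139800807 (plus strand) for Cldn2, each written 5′ to 3′ along the gene.
Ocln: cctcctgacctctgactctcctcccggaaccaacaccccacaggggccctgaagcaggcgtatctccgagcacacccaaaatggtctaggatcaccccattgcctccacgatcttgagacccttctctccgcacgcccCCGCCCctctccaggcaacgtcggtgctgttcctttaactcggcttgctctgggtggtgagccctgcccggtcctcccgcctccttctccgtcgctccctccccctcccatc
Myh9: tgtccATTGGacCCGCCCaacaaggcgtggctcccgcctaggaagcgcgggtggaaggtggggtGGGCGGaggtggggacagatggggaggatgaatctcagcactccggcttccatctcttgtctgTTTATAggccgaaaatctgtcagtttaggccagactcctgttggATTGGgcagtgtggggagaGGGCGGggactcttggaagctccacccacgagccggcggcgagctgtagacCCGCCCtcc
Cldn2: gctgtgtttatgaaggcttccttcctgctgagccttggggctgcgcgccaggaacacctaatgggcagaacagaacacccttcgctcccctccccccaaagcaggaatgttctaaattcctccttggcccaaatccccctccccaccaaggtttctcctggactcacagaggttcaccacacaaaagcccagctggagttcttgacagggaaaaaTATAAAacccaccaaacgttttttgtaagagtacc
Motifs were searched on both strands. They were the E-box with the letters CAGGTG, the GC box with GGGCGG, the box spelled CCAAT, the TATA box with TATAAA, the AP-1 site with TGANTCA, the GATA site with AGATAA, the TCF site with ATCAAAG and the grainyhead site with AACCGGTT. The Ocln window shown held 1 GC box match at position -112 from the start. A second RefSeq window of Ocln (chr13:100552499-100552748) held E-box matches at -213 and -68, a GC box match at -43 and a CCAAT box match at -25 from its own start. For the others, the Myh9 window held 4 GC box, 2 CCAAT box and 1 TATA box match, and the Cldn2 window held a TATA box match at -35. Taking the most upstream window of each of 27025 genes, a GC box was present in 33% of them, a CCAAT box in 34.5%, a TATA box in 13%, the E-box in 17.1%, the AP-1 site in 6.85%, the GATA site in 10.2%, the TCF site in 3.26% and the grainyhead site in 0.126%. Windows were found for 9 of the 10 members, all but Cdh1. In their most upstream windows, 7 of the 9 held a GC box, 3 an AP-1 site, 2 an E-box, 2 a CCAAT box and 1 a TATA box, and 0 held a GATA, TCF or grainyhead match. The Ocln window was 64% G and C against a median of 52.4% over all windows.

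The pore-forming claudins Cldn2 and Cldn15 pass small cations between cells, Cldn2 mainly in crypts. In SM6 Cldn2 stood at 342, 249 and 287 CPM in young and 209, 267 and 341 CPM in old libraries. Its Lgr5-GFP levels were 272, 315 and 284 CPM in young and 283, 236 and 244 CPM in old libraries. Young and old overlapped in both isolations, and the log2 fold changes were -0.10 ± 0.18 (SE) in SM6 and -0.19 ± 0.18 in Lgr5-GFP, with 95% intervals of -0.48 to 0.27 and -0.56 to 0.19.

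Cldn15, on chromosome 5 (chr5:136966616-136975858), had positive log2 fold changes in both isolations without being called. Its SM6 libraries stood at 235, 222 and 297 CPM in young and 312, 368 and 267 CPM in old mice. Its Lgr5-GFP libraries stood at 238, 269 and 235 CPM in young and 273, 218 and 316 CPM in old mice. The ranges overlapped, and the log2 fold changes were 0.33 with a 95% interval of -0.04 to 0.70 in SM6 and 0.12 with an interval of -0.24 to 0.49 in Lgr5-GFP (edgeR quasi-likelihood test, adjusted p = 0.455 and 0.886). The averaged value was 0.23 (interval -0.03 to 0.49).

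Cldn3 and Cldn4 are claudins that tighten the seal and lie close together on chromosome 5 (chr5:134986214-134987472 and chr5:134945119-134946934). Cldn3 stood at 231, 222 and 215 CPM in SM6 young and 275, 292 and 181 CPM in SM6 old libraries. It stood at 245, 272 and 190 CPM in Lgr5-GFP young and 230, 141 and 194 CPM in Lgr5-GFP old libraries. Old libraries spread on both sides of the young ones in SM6, and the log2 fold changes were 0.17 ± 0.20 (SE) in SM6 and -0.32 ± 0.20 in Lgr5-GFP. With single libraries left out they ranged from 0.0369 to 0.36 in SM6 and from -0.496 to -0.146 in Lgr5-GFP. The difference of the age effects of Cldn3 was -0.49 with a 95% interval of -1.07 to 0.10 and was not called. Cldn3 shares 40 exonic bases with the antisense gene Wbscr25, which had 0 to 6 counts per library.

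Cldn4 was measured with few reads, 3 to 62 counts per library, and its values spread widely between libraries. The part of read number in that spread was not tested. It stood at 6.68, 13.9 and 15.2 CPM in SM6 young and 9.35, 6.79 and 10.4 CPM in SM6 old libraries. Lgr5-GFP libraries had 19.5, 7.56 and 9.93 CPM in young and 6.67, 8.94 and 2.89 CPM in old libraries. All pairs of groups overlapped. Its log2 fold changes were -0.43 (95% interval -1.38 to 0.52) in SM6 and -1.04 (interval -2.02 to -0.07) in Lgr5-GFP. The SM6 value was -0.72 without young replicate 1, -0.23 without young replicate 3 and -0.26 without old replicate 2. The unadjusted p in Lgr5-GFP was 0.0365 and the adjusted p was 0.47. Without Lgr5-GFP young replicate 1, the library with 62 counts, the Lgr5-GFP value was -0.50.

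Cldn7 is found along the sides of epithelial cells as well as at the tight junction, where it binds EPCAM. It stood at 315, 317 and 329 CPM in SM6 young and 336, 362 and 334 CPM in SM6 old libraries. These groups did not overlap, with old higher, which held for 7.74% of all genes tested, but the log2 fold change was 0.11 ± 0.16 (SE), was not called, and was -0.05 with library totals alone. In Lgr5-GFP it stood at 266, 398 and 353 CPM in young and 281, 298 and 307 CPM in old libraries, with a log2 fold change of -0.20 ± 0.16 and overlapping ranges.

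F11r encodes junctional adhesion molecule A, an immunoglobulin-like protein of the tight junction. It stood at 111, 98.1 and 91.1 CPM in SM6 young and 116, 103 and 106 CPM in SM6 old libraries, and at 140, 115 and 111 CPM in Lgr5-GFP young and 112, 73.2 and 101 CPM in Lgr5-GFP old libraries. Young and old overlapped in both isolations. The log2 fold changes were 0.11 (95% interval -0.26 to 0.49) in SM6 and -0.36 (interval -0.73 to 0.02) in Lgr5-GFP. With single libraries left out they ranged from 0.0504 to 0.193 in SM6 and from -0.495 to -0.195 in Lgr5-GFP.

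Tjp1 encodes ZO-1, the scaffold that ties claudins and occludin to actin. It had 18 to 63 counts per library and stood at 23.7, 19.4 and 15.2 CPM in SM6 young and 17.9, 18.3 and 14.4 CPM in SM6 old libraries. In Lgr5-GFP it stood at 19.9, 24.6 and 16.6 CPM in young and 26.7, 17.1 and 25.1 CPM in old libraries. All 4 groups overlapped. The log2 fold changes were -0.21 (95% interval -0.83 to 0.41) in SM6 and 0.21 (interval -0.39 to 0.80) in Lgr5-GFP. With single libraries left out they ranged from -0.344 to -0.041 in SM6 and from 0.0708 to 0.383 in Lgr5-GFP.

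Cdh1 encodes E-cadherin, the adhesion receptor of the adherens junction, and lies at chr8:106603351-106670246. It stood at 282, 253 and 311 CPM in SM6 young and 251, 263 and 244 CPM in SM6 old libraries. Lgr5-GFP libraries had 361, 350 and 337 CPM in young and 299, 324 and 339 CPM in old libraries. Young and old overlapped in each isolation. The age effects were -0.16 (95% interval -0.47 to 0.15) in SM6 and -0.12 (interval -0.43 to 0.19) in Lgr5-GFP, and Cdh1 varied least of the 10 genes between replicates, with a biological coefficient of variation from edgeR of 14.1% against a median of 23% over all genes.

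Ctnnb1 encodes beta-catenin, which links E-cadherin to the cytoskeleton and carries the Wnt signal. Its count was 4 to 114 per library. It stood at 12.7, 11.6 and 9.40 CPM in SM6 young and 12.5, 8.14 and 18.4 CPM in SM6 old libraries, and at 35.9, 3.78 and 12.4 CPM in Lgr5-GFP young and 16.0, 4.88 and 11.6 CPM in Lgr5-GFP old libraries. Replicates of Lgr5-GFP young spread more widely than the group means did, and the coefficient of variation was 39.1%, the highest of the 10. The log2 fold changes were 0.18 (95% interval -0.93 to 1.30) in SM6 and -0.79 (interval -1.85 to 0.27) in Lgr5-GFP, and the second was 0.29 without Lgr5-GFP young replicate 1. Of the last 500 exonic bases of Ctnnb1, 475 are shared with Ulk4 on the opposite strand. Whether counting used strand is not given in the sources used here, and Ulk4 had 0 to 2 counts per library, so the Ctnnb1 counts are uncertain.

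**Figure D3:**
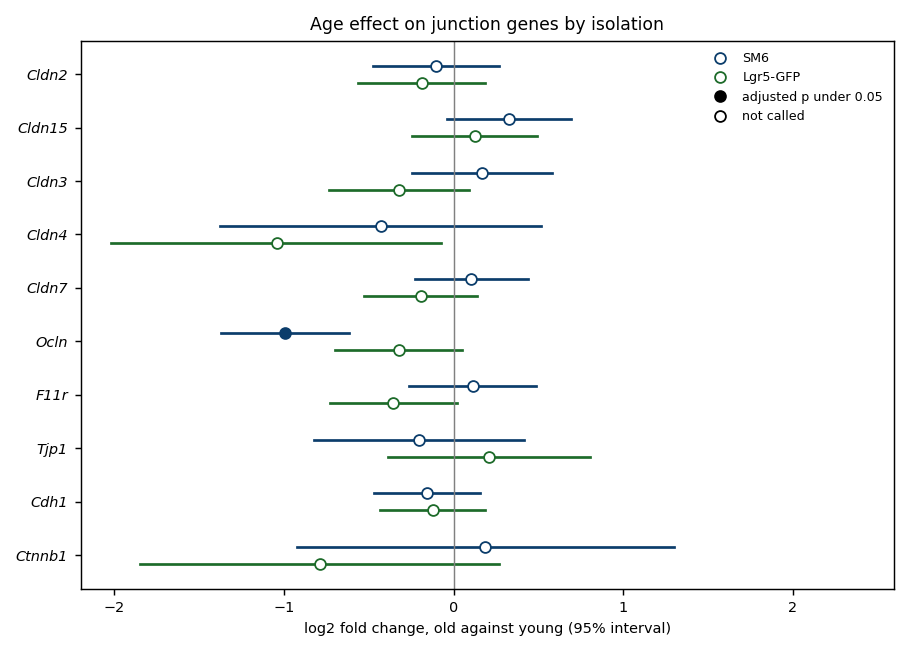
The log2 fold change of each of the 10 junction genes, old against young, is on the horizontal axis with its 95% interval as a line, in blue for SM6 and in green for Lgr5-GFP. Only the SM6 value of Ocln, at -0.99, is filled as called, and the widest intervals belong to Cldn4 and Ctnnb1.

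In SM6 the 95% interval lay between -1 and 1 on the log2 scale for 7 of the 10 genes, against 44.0% of all genes tested, and Ocln, Cldn4 and Ctnnb1 were the others. Standard errors in SM6 were 0.15 to 0.20 for the 7 members other than Cldn4 (0.46), Tjp1 (0.30) and Ctnnb1 (0.54), and Ocln had an interval reaching past -1 with a standard error of 0.18. In Lgr5-GFP it did so for 8 of 10, against 47.2% of all genes. In Lgr5-GFP 0 of the 10 were called by the edgeR quasi-likelihood test, where 0.471% of all genes were, and 1 (Cldn4) had an unadjusted p under 0.05, as did 9.79% of all genes. DESeq2, limma voom and the edgeR likelihood ratio test also called 0 of the 10 there. The median log2 fold change of the 10 was 0.00023 in SM6 and -0.26 in Lgr5-GFP, beside -0.007 and -0.034 over all genes tested, with 5 and 2 of 10 members above 0. Both age effects were estimated in one fit but share no libraries.

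For the order of the 4 group means, 8 of the 10 genes had no pair of neighbouring groups whose libraries lay apart, which held for 85.0% of all genes tested. Ocln was highest in SM6 young, apart from Lgr5-GFP young, which was followed by Lgr5-GFP old and SM6 old with overlapping libraries. For Cldn7, the order was SM6 old, Lgr5-GFP young, SM6 young and Lgr5-GFP old, with the last pair apart. For Cdh1 both Lgr5-GFP groups stood above both SM6 groups, and the highest and lowest groups lay apart.

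Isolations were compared at each age to see whether the way ISCs were obtained, or the strain, went with junction gene levels. At 2 months 0 of the 10 genes were called by the edgeR quasi-likelihood test, where 0.0898% of all genes were, and 0 had an unadjusted p under 0.05, against 7.47% of all genes. Ocln and Cdh1 had libraries that did not overlap between the isolations, which held for 13.7% of all genes. For Lgr5-GFP against SM6 young, Ocln had a log2 fold change of -0.37 (95% interval -0.74 to 0.0017) and Cdh1 one of 0.31 (interval -0.00069 to 0.62). At 22 months 0 of the 10 were called, where 0.718% of all genes were, and 1 had an unadjusted p under 0.05, against 9.40% of all genes. That gene was Cdh1, with a log2 fold change of 0.34 (interval 0.03 to 0.66, unadjusted p = 0.0334, adjusted p = 0.476). Cdh1 and Cldn7 had libraries that did not overlap at 22 months, against 13.5% of all genes, and Cldn7 had a log2 fold change of -0.22. DESeq2, limma voom and the likelihood ratio test called 0 members at either age.

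The difference of the age effects was tested for each member in the same model, and 0 of 10 were called where 0.658% of all genes were. Ocln alone had an unadjusted p under 0.05, as 9.43% of all genes did. DESeq2, limma voom and the likelihood ratio test called 0 as well. Values of the other members ran from -0.97 for Ctnnb1 to 0.41 for Tjp1, and 5 of the 10 intervals lay between -1 and 1, against 26.5% over all genes.

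The genes around these junctions were read from a list of 97, of which 72 were tested. They comprised other claudins, membrane, plaque and polarity proteins of the tight junction, partners of the adherens junction, desmosomes, gap junctions, the actomyosin belt, EPCAM with its proteases, and factors that control epithelial adhesion. In SM6, 3 of 72 were called lower and 0 higher, where 1.77% of all genes were called lower and 2.42% in either direction. In Lgr5-GFP 1 was called lower and 0 higher, where 0.471% of all genes were called. On average over both isolations 4 were called lower and 0 higher, against 2.06% of all genes called lower. With no filter beyond 1 count, Actn1 of the actomyosin belt was called higher in SM6 (log2 fold change 0.95, adjusted p = 0.000957) and on average (0.75, adjusted p = 7.02e-05), whereas with the filter its values were 0.95 (adjusted p = 0.432) and 0.76 (adjusted p = 0.341). Its SM6 libraries overlapped, with 32.7 to 54.2 CPM in young and 28.8 to 197 CPM in old mice. The difference of the age effects gave 0 calls by the edgeR quasi-likelihood test, with 9 of 72 at an unadjusted p under 0.05, against 9.43% of all genes. Both comparisons of the isolations also gave 0 calls, with 10 of 72 at an unadjusted p under 0.05 at 2 months, against 7.47% of all genes, and 7 of 72 at 22 months, against 9.40%, and neither DESeq2 nor limma voom called any. The median log2 fold change of the 72 was 0.019 in SM6 and -0.046 in Lgr5-GFP.

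Genes of the actomyosin belt, the contractile ring attached to the adherens junction, gave 2 of the 3 calls in SM6, while 7 of its 13 tested genes had positive log2 fold changes and the median was 0.049. In Lgr5-GFP 1 of the 13 was called, and 4 were positive. Myh9, the heavy chain of non-muscle myosin IIA, stood at 1798, 2120 and 1964 CPM in SM6 young and 451, 560 and 637 CPM in SM6 old libraries. These groups lay far apart, and Myh9 fell by 1.84 on the log2 scale with a standard error of 0.25 (edgeR quasi-likelihood test, adjusted p = 0.000199). In Lgr5-GFP Myh9 stood at 1357, 1361 and 2128 CPM in young and 607, 1134 and 479 CPM in old libraries, with a fall by 1.13 that was called (adjusted p = 0.0326). That call was lost in 6 of 26 alternatives, among them the fits without Lgr5-GFP young replicate 3 (-0.88, adjusted p = 0.181), old replicate 1 (-1.0, adjusted p = 0.17) or old replicate 3 (-0.89, adjusted p = 0.188).

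Rhoa encodes a small GTPase that promotes contraction of that belt. It stood at 155, 214 and 207 CPM in SM6 young and 67.8, 72.6 and 103 CPM in SM6 old libraries. The groups did not overlap, and Rhoa fell by 1.24 on the log2 scale with a standard error of 0.22 (adjusted p = 0.00186, edgeR quasi-likelihood test). In Lgr5-GFP it stood at 114, 107 and 146 CPM in young and 80.0, 126 and 75.2 CPM in old libraries, which overlapped, with a log2 fold change of -0.39 that was not called. That value was -0.66 without old replicate 2 (adjusted p = 0.266) and -0.24 without young replicate 3 (adjusted p = 0.853). Rhoa shares 324 exonic bases with the antisense gene Gm37401 and 32 with Tcta, none of them in its last 500 exonic bases.

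Magi1 encodes a scaffold of the tight junction plaque. It stood at 112, 110 and 95.4 CPM in SM6 young and 27.3, 41.4 and 39.9 CPM in SM6 old libraries. The groups did not overlap, and Magi1 fell by 1.54 with a standard error of 0.28 (adjusted p = 0.00241, edgeR quasi-likelihood test). In Lgr5-GFP it stood at 66.8, 88.9 and 82.0 CPM in young and 42.0, 86.2 and 27.0 CPM in old libraries. Old replicate 2 again lay among the young libraries, and the log2 fold change was -0.59 (adjusted p = 0.472), with -1.16 without that library (adjusted p = 0.0259) and -0.31 without old replicate 3 (adjusted p = 0.84).

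Myh14, a further non-muscle myosin heavy chain, was called by the edgeR quasi-likelihood test on the average of both isolations, where it fell by 0.48 (adjusted p = 0.034). In SM6 its log2 fold change was -0.60 (adjusted p = 0.0713), and it was called there in 4 of 26 alternatives, among them DESeq2 (adjusted p = 0.0467) and limma voom (adjusted p = 0.0435). Its call on average was lost in 13 of 25 alternatives, including the fits without replicate 1 or 2 of SM6 young, 1 or 2 of SM6 old, 1 or 3 of Lgr5-GFP young, and 2 or 3 of Lgr5-GFP old, where log2 fold changes were -0.49 to -0.40 and adjusted p 0.0601 to 0.119. It was also lost with the enterocyte share as a covariate (-0.37, adjusted p = 0.355), with the defensin share (-0.42, adjusted p = 0.0615), without the library with the highest defensin share of each isolation (-0.48, adjusted p = 0.0581), with library totals alone (-0.46, adjusted p = 0.112) and with a replicate block (-0.47, adjusted p = 0.0532). In SM6, Myh9, Rhoa and Magi1 were called in all 26 alternatives. The fits that left out only a Lgr5-GFP library barely moved these SM6 values and are little of a check on them. Ocln, Rhoa and Magi1 had in common that Lgr5-GFP old replicate 2, the library with the highest enterocyte marker sum, was the highest of the 3 old libraries, and so had Myh9. In SM6 old the order was the reverse. There replicate 1 had the highest enterocyte marker sum (9750 CPM against 5250 and 2820 CPM) and the lowest Ocln, Myh9, Rhoa and Magi1 of the 3 libraries. The part of cell composition was not tested for these genes beyond the covariate fit.

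With all 12 libraries and the reported filter and scaling, the edgeR quasi-likelihood test called no gene in the other groups of the list. Of 17 other claudins only Cldn8, Cldn12 and Cldn23 passed the filter, and none was called in an age comparison. All 7 desmosome genes had positive log2 fold changes in SM6, with a median of 0.49 and 0 called, and 4 of 7 were positive in Lgr5-GFP. Over all 13368 genes tested, 6561 were positive in SM6, with a median of -0.007, and 6187 in Lgr5-GFP. The desmosome group was singled out after the values were seen. The largest among them were Ppl at 1.08 (adjusted p = 0.085) and Pkp3 at 0.83 (adjusted p = 0.0791), 2 genes picked out here after their values were seen. The edgeR likelihood ratio test called both (adjusted p = 0.0466 for Ppl and 0.0394 for Pkp3), and the quasi-likelihood test called Pkp3 without SM6 young replicate 2 (1.12, adjusted p = 0.0432). On average over both isolations it called Nectin1 without SM6 old replicate 1 (-0.87, adjusted p = 0.0491) and Grhl2 without Lgr5-GFP old replicate 2 (-0.69, adjusted p = 0.0448). Of 12 adherens junction partners, 6 were positive and 6 negative in SM6, and of 12 polarity genes also 6 and 6. Epcam, a marker used in the sort, had a mean of 2200 ± 230 CPM (SD, n = 3) in SM6 young and 1690 ± 35.1 CPM in SM6 old libraries and was not called by the edgeR quasi-likelihood test (log2 fold change -0.38, adjusted p = 0.256), whereas limma voom called it (adjusted p = 0.0457).

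**Figure D4:**
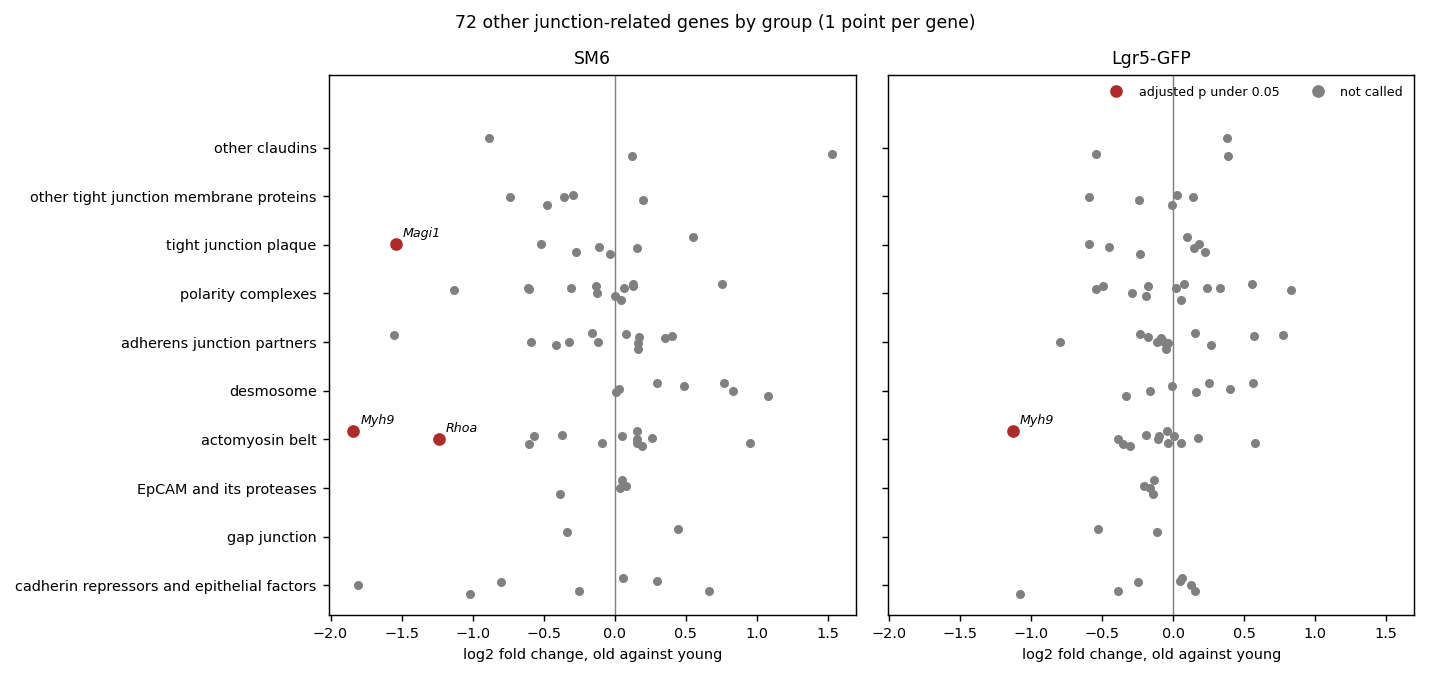
Each point is 1 of the 72 tested genes of the wider list, placed by its log2 fold change, old against young, on the horizontal axis, and by gene group on the vertical axis, for SM6 on the left and Lgr5-GFP on the right. Red points are called, namely Magi1, Myh9 and Rhoa in SM6 and Myh9 in Lgr5-GFP, and all of them lie below 0.

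The genes whose pattern over the 12 libraries was most like that of Ocln were found by the root mean square difference of centred log2(CPM + 1) values. They were Sox9 at 0.116, Dctn4 at 0.118, Gid4 at 0.127, Dnaja3 at 0.128 and Tubb5 at 0.131. Sox9 is a transcription factor of the crypt base and was among the stem cell markers summed above. Its mean level was 1710 CPM in young and 850 CPM in old SM6 libraries. Among Lgr5-GFP libraries the means were 1350 CPM for young and 1030 CPM for old mice. Tubb5, a beta tubulin, had means of 2050 and 1070 CPM in young and old SM6 mice and of 1690 and 1230 CPM in Lgr5-GFP. Dctn4 of the dynactin complex had means of 215 and 109 CPM in SM6 and of 164 and 152 CPM in Lgr5-GFP. Among the 10 junction genes the nearest to Ocln were Cdh1 at 0.41 and Cldn2 at 0.421, and the farthest was Ctnnb1 at 0.864. The median distance to Ocln over the other 13367 genes tested was 0.581.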

How the data were processed

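The authors used STAR 2.4.2a to align reads to GRCm38 and counted reads over exons of GENCODE genes with featureCounts, per the labels and the study's methods, and the deposited table holds these raw counts for 12 libraries without scaling. Unique molecular identifiers were part of the libraries, but whether they were used to collapse reads is not given in the sources used here, so precision from counts covers counting error only. Replicates were described as individual mice, and no 2 libraries of a group agreed within sampling noise.

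The test was the edgeR 4.0.16 quasi-likelihood F test (R 4.3.3), after keeping genes that exceeded 5 reads and reached 1 CPM in at least 1 library and after TMM scaling (trimmed mean of M values). All 12 libraries entered 1 model with a mean for each of the 4 groups, and 6 contrasts were tested, two-sided, with Benjamini-Hochberg adjustment over 13368 genes and a threshold of 0.05. In simulated data for the SM6 age comparison the model recovered 31% of changes of 1 and 68% of changes of 2 on the log2 scale over these genes. CPM values are TMM-scaled. Intervals were built from the standard error of the fit.

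The 10 junction genes, the wider and marker lists and most alternatives were chosen with earlier results of these data known. All 10 members are given. From the wider list, genes called in an age comparison are named, and for likeness the 5 genes closest to the member with the smallest adjusted p on average and in the interaction, which was Ocln in both cases. Alternatives were other scaling, filters, limma 3.58.1, DESeq2 1.42.0, covariates, leaving out libraries and a replicate block. The fit with enterocyte share and the shares within the 10 genes were added after seeing the data. Positions come from GENCODE vM21 and promoters from RefSeq (GRCm38.p6), and plots used matplotlib 3.10.9 in Python 3.11.15. No protein sequences were used.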

Additional observations from a re-analysis of the deposited data

How the results depend on the processing

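The single member called in SM6 and on average (Ocln), and the 0 members called in the other 4 comparisons, were unchanged in every alternative fit (26 for comparisons within an age or isolation, 25 for the average and the difference of age effects). For a comparison within an age or isolation, leaving out a library of another group acts only through the shared filter, scaling and spread estimate. Cldn4, Tjp1 and Ctnnb1 had the lowest counts of the members and the largest standard errors in SM6, and the part of depth in this was not tested. With library totals alone, the median log2 fold change of all genes moved to -0.16 in SM6 and 0.16 in Lgr5-GFP, while 39.2% of the calls in Lgr5-GFP were lower in place of 60.3%. Calls over all genes ranged from 145 to 603 in SM6 (main 323), 26 to 274 in Lgr5-GFP (63), 228 to 590 on average (355), 34 to 224 for the difference of age effects (88), 6 to 125 between isolations at 2 months (12) and 40 to 228 at 22 months (96). Replicate numbers did not pair the libraries, since deviations of same-numbered libraries correlated between -0.044 and 0.048, and with a replicate block Ocln had a log2 fold change of -0.989 in SM6 (edgeR quasi-likelihood adjusted p = 0.00234), with 375 genes called, and the block changed no call of a member.

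For the wider list, 3 calls in SM6 became 5 with library totals alone, with the likelihood ratio test and with limma voom. The added genes were Myh14 and Grhl2 with library totals, Pkp3 and Ppl with the likelihood ratio test, and Myh14 and Epcam with limma voom. The 4 calls on average ranged from 3 to 5. The 1 call in Lgr5-GFP became 0 with library totals alone, the robust quasi-likelihood fit and DESeq2, and ranged from 0 to 2 when single libraries were left out. The cause was not tested.

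Members that were not called often changed sign around 0, and the cause was not tested. With library totals alone, log2 fold changes became -0.0451 for Cldn7 and -0.0343 for F11r in SM6, and 0.00106 for Cldn2 and 0.071 for Cdh1 in Lgr5-GFP. The differences of age effects became 0.28 for Cldn2, 0.0241 for Cldn7 and 0.128 for Cldn15. Between isolations the values became -0.0657 for Cldn3, -0.0604 for Cldn4, -0.0431 for Cldn7 and -0.112 for Tjp1 at 2 months, and 0.134 for Cldn2, 0.0266 for F11r and 0.00511 for Ctnnb1 at 22 months. With limma voom, they became -0.00472 for Ctnnb1 in SM6, -0.0271 for Cdh1 in the difference of age effects, 0.0402 for Cldn2 and 0.0175 for Cldn15 between isolations at 2 months, and 0.0257 for Cldn2 and 0.0373 for Ctnnb1 at 22 months.

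With the defensin share as a covariate, values became -0.394 for Ctnnb1 in SM6, and 0.0297 for Cldn2, -0.051 for Cldn15 and 0.223 for Ctnnb1 in Lgr5-GFP. Differences of age effects became 0.283 for Cldn2, -0.0208 for Cdh1 and 0.617 for Ctnnb1. Between isolations they became 0.135 for Cldn15, -0.13 for Tjp1 and -0.101 for Ctnnb1 at 2 months, and 0.0839 for Cldn2 and 0.516 for Ctnnb1 at 22 months. Without the library with the highest defensin share of each isolation, Ctnnb1 became 0.298 in Lgr5-GFP and -0.133 in SM6, the averaged value became 0.0828, and that of Cldn3 became 0.0407. The differences of age effects became 0.0582 for Cldn2, 0.0495 for Cldn4 and 0.431 for Ctnnb1. Between isolations, values became 0.0497 for Cldn2, -0.38 for Cldn4, 0.0196 for Cldn15 and -0.318 for Ctnnb1 at 2 months, and 0.108 for Cldn2 and 0.113 for Ctnnb1 at 22 months. With the enterocyte share, Cldn2 became 0.0523 in SM6 and 0.00997 on average, and Ctnnb1 became 0.117 on average. Tjp1 on average became -0.0149 with no filter and -0.00149 with the stricter filter. At 2 months the stricter filter gave 0.0134 for Cldn2 and 0.00295 for Cldn15, and a fit to the compared libraries alone gave 0.00387 for Cldn2.

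When single libraries were left out, values ranged in SM6 from -0.288 to 0.0724 for Cldn2 and -0.136 to 0.443 for Ctnnb1, and in Lgr5-GFP from -0.00549 to 0.257 for Cldn15 and -1.23 to 0.292 for Ctnnb1. On average they ranged from -0.165 to 0.0213 for Cldn3, -0.12 to 0.0184 for Cldn7, -0.069 to 0.0887 for Tjp1 and -0.523 to 0.24 for Ctnnb1. Differences of age effects ranged from -0.257 to 0.103 for Cldn2, -0.0419 to 0.108 for Cdh1 and -1.42 to 0.104 for Ctnnb1. Between isolations at 2 months they ranged from -0.121 to 0.112 for Cldn2, -0.0292 to 0.213 for Cldn3, -0.399 to 0.327 for Cldn4, -0.0503 to 0.23 for Cldn7, -0.11 to 0.11 for Cldn15, -0.11 to 0.192 for Tjp1 and -0.335 to 1.11 for Ctnnb1. At 22 months they ranged from -0.252 to 0.108 for Cldn2 and -0.673 to 0.122 for Ctnnb1.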

Other observations

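Of 17 other claudins, 14 did not pass the filter, and 10 of those 14 had no count in any of the 12 libraries, among them Cldn1, Cldn5 and Cldn18. A count of 0 in a library was taken to allow up to 3 counts. Cldn9, Cldn10, Cldn19 and Cldn20 had 1 or 2 counts in all. Cldn8, Cldn12 and Cldn23 had mean levels of 14.0, 25.2 and 3.15 CPM in SM6 young and 7.44, 27.5 and 9.13 CPM in SM6 old libraries. In Lgr5-GFP their means were 9.66, 26.7 and 8.63 CPM in young and 12.8, 35.2 and 5.71 CPM in old libraries. Of the factors that repress E-cadherin, Snai2 was counted in every group, with 18 counts over the SM6 young, 4 over the SM6 old, 13 over the Lgr5-GFP young and 8 over the Lgr5-GFP old libraries. Twist1 had 4 counts in all and Zeb1 had 2, while Snai1 and Zeb2 had no count in any library.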
